A study of Mus musculus with 6 samples.

Results

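The 10 genes described here encode the core of the KEAP1 and NRF2 system: Keap1, Cul3 and Rbx1, which form a ubiquitin ligase; Sqstm1, which encodes p62; the cap'n'collar factors Nfe2l2 (NRF2), Nfe2l1 (NRF1) and Bach1; and the small MAF proteins Mafg, Mafk and Maff. They were taken by gene symbol from a count table of 31205 genes. All 10 passed the filter on low counts, which left 11453 genes. The series concerns PD-L1, an immune checkpoint ligand, and ferroptosis of dendritic cells, an iron-dependent cell death against which NRF2 targets protect. The samples are 6 total-RNA sequencing libraries of DC2.4, an immortalized mouse dendritic cell line. Of these, 3 carry the genotype label Control and 3 the label PD-L1 knockout, and the labels name no drug or other treatment. The labels do not say whether the knockout cells are 1 clone, how the gene was disrupted, what the control cells carry, or whether replicate libraries stem from different cultures. The p-values therefore reflect only how far these libraries vary, and that variation may be technical.

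KEAP1 is a thiol-rich adaptor that holds the transcription factor NRF2 against the cullin CUL3 and its RING partner RBX1, so that NRF2 is ubiquitinated and degraded. Electrophiles and oxidants modify KEAP1, and p62 can capture it for autophagy; both spare NRF2, which enters the nucleus, pairs with a small MAF protein and binds antioxidant response elements. BACH1, a haem-sensing repressor, binds the same elements with the same MAF partners, and NRF1 is a relative processed at the endoplasmic reticulum that drives proteasome genes. Much of this regulation acts on protein stability and location, which RNA counts do not measure.

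Deposited totals ran from 10918498 to 23250065 counts per library. A principal component analysis of all tested genes separated the groups on its first axis (66.3% of the variance), and knockout library 1 stood apart from the other knockout libraries on the second (15.8%). A gene is called higher or lower when its adjusted p was under 0.05 in edgeR's quasi-likelihood test with Benjamini-Hochberg adjustment over all tested genes. Called genes made up 25.3% of those tested, 11.8% higher and 13.5% lower. The number of calls depended on single libraries, at 638 without control library 2, 1044 without knockout library 2, 1222 without knockout library 3, 1783 without control library 3 and 4962 without knockout library 1, against 2896 with all 6. Cd274, which encodes PD-L1, had 5.78 ± 1.09 CPM (counts scaled to the TMM-normalized library total; SD, n = 3) in control and 7.08 ± 1.44 in knockout libraries, with an adjusted p of 0.415 in edgeR's test. Its transcript level does not separate the groups, so every direction below rests on the labels. Of the dendritic and myeloid markers, Cd74, Ptprc, Spi1, Irf8, Itgax and Cd86 were expressed, and Flt3, Ccr7, H2-Ab1 and Batf3 were at or near 0. Cd80, a costimulatory ligand, was called higher (18.7 to 23.7 CPM in control, 28.8 to 35.4 in knockout libraries) and Zbtb46, a factor of conventional dendritic cells, lower (5.91 to 8.71 CPM against 4.28 to 5.28), each losing the call in 10 of 18 alternatives; Irf4 was low and not called. Itgax, which encodes CD11c, was at 68.6, 54.7 and 51.5 CPM in control and 79.7, 25.9 and 32.4 in knockout libraries, lower in knockout libraries 2 and 3 only, and not called. The 13 markers summed to 786 to 840 CPM in control and 768 to 850 in knockout libraries, a sum carried by Cd74, Ptprc and Spi1. The part of these marker differences in the results below was not tested. A list of 12 stromal genes summed to 0.719 to 226 CPM in control libraries, with control library 2 alone at the top through Col1a1 and Fn1, and to 0.249 to 1.01 in knockout libraries. In bulk RNA, fewer cells of a type and less RNA per cell cannot be told apart.

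Of the 10 regulators, Sqstm1 was called higher and Keap1 lower in the knockout libraries, and the other 8 were not called. That is 20% of the list, beside 25.3% of all tested genes. The libraries of the groups did not overlap for 4 of the 10 (Keap1, Sqstm1, Cul3 and Maff), beside 42.9% of all tested genes. The list's median log2 fold change was 0.18, beside 0.01 for all tested genes. So the shares of the 10 regulators lay at or below the background, and what follows describes single genes.

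**Figure D1:**
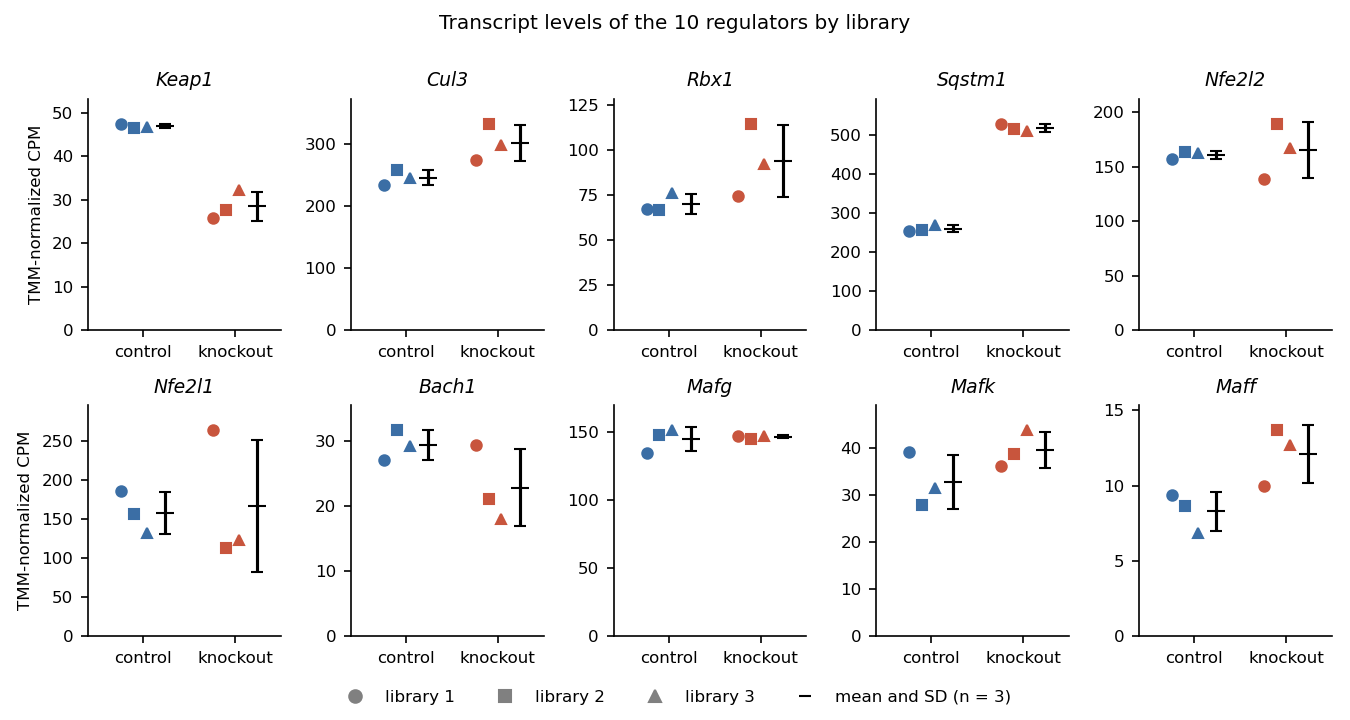
TMM-normalized CPM of the 10 regulators, each panel on its own linear axis from 0, with 1 symbol per library and the mean and SD (n = 3) beside each group. The 3 knockout libraries lie below all controls for Keap1 and above all controls for Sqstm1, Cul3 and Maff, and knockout library 1 lies far above the other knockout libraries for Nfe2l1.

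Keap1, the adaptor of the ligase (ENSMUSG00000003308.15, mm10 chr9:21229730-21239361, minus strand), was at 47.5, 46.6 and 46.7 CPM in control libraries 1 to 3 and at 25.7, 27.7 and 32.2 in knockout libraries 1 to 3. The 3 controls lay within 1 CPM of each other, and every knockout library was below all of them. The mean fell from 46.9 ± 0.51 to 28.6 ± 3.33 CPM (SD, n = 3), which is -0.72 on the log2 scale (SE 0.14, 95% interval -1.02 to -0.41, adjusted p = 0.00754 in edgeR's test), or 0.609 of the control level. The call held in each leave-one-out fit. An antisense gene, Gm16754, covers 510 bases (10.9%) of Keap1's exons, with 319 counts over the 6 libraries against 2486 Keap1 counts in the controls alone; without strand information its reads cannot be told from Keap1's in the shared bases.

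The decrease of Keap1 was shared by the genes around it. Pde4a, a cAMP phosphodiesterase and the nearest tested protein-coding gene on one side, was at 54.4, 57.4 and 53.4 CPM in control and 23.3, 20.6 and 25.8 in knockout libraries (log2 fold change -1.24). Atg4d, an autophagy protease and the nearest on the other side, was at 25.4, 27.5 and 27.1 CPM against 14.9, 17.4 and 23.3 (-0.52, adjusted p = 0.0553 in edgeR's test, not called). The knockout libraries lay below all controls for both neighbours.

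Among the 20 tested genes nearest to Keap1, 10 on each side, all 20 had a fold change below 0, 12 were called lower and 0 higher, and their median was -0.76, close to Keap1's own -0.72. After offsets for transcript length and GC content the median was -0.71. In each knockout library the median gene of this stretch lay below the control mean, by log2 values of -0.60, -0.83 and -0.69 in libraries 1 to 3, where Keap1 itself lay at -0.86, -0.76 and -0.54. The neighbours include Dnmt1, the maintenance DNA methyltransferase, which fell from 454 ± 41.9 to 196 ± 31.0 CPM (log2 fold change -1.21), and Tyk2, a Janus kinase (-1.03). Cdc37, a kinase co-chaperone in the same stretch, was not called (-0.14). These 3 were picked from the neighbours after their values were seen.

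Across the genome, 10982 tested genes have 10 tested genes on each side. For 20 of them (0.182%) the neighbours' median was at or below that of Keap1, and all 20 of those lie on chromosome 9, Keap1 among them. All 20 neighbours were below 0 for 14 genes (0.127%). Genes side by side share most of their neighbours, so these are not counts of separate stretches. With a bound chosen after seeing the data, the 96 other tested genes of chromosome 9 before 24 Mb held 51 called lower (53.1%) and 0 called higher, with a median log2 fold change of -0.57. The 547 genes beyond it held 83 called lower (15.2%) and 39 higher, with a median of -0.03. When the median deviation of its 20 neighbours was removed from each library, a fit chosen after seeing the data, Keap1's difference was 0.03 (SE 0.16, adjusted p = 0.914 in edgeR's test). The fit takes these medians as fixed, so their own error is not in the SE or p. Keap1 was thus lower than in the controls, and not measurably lower than the genes beside it. What lowers the stretch was not tested.

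**Figure D2:**
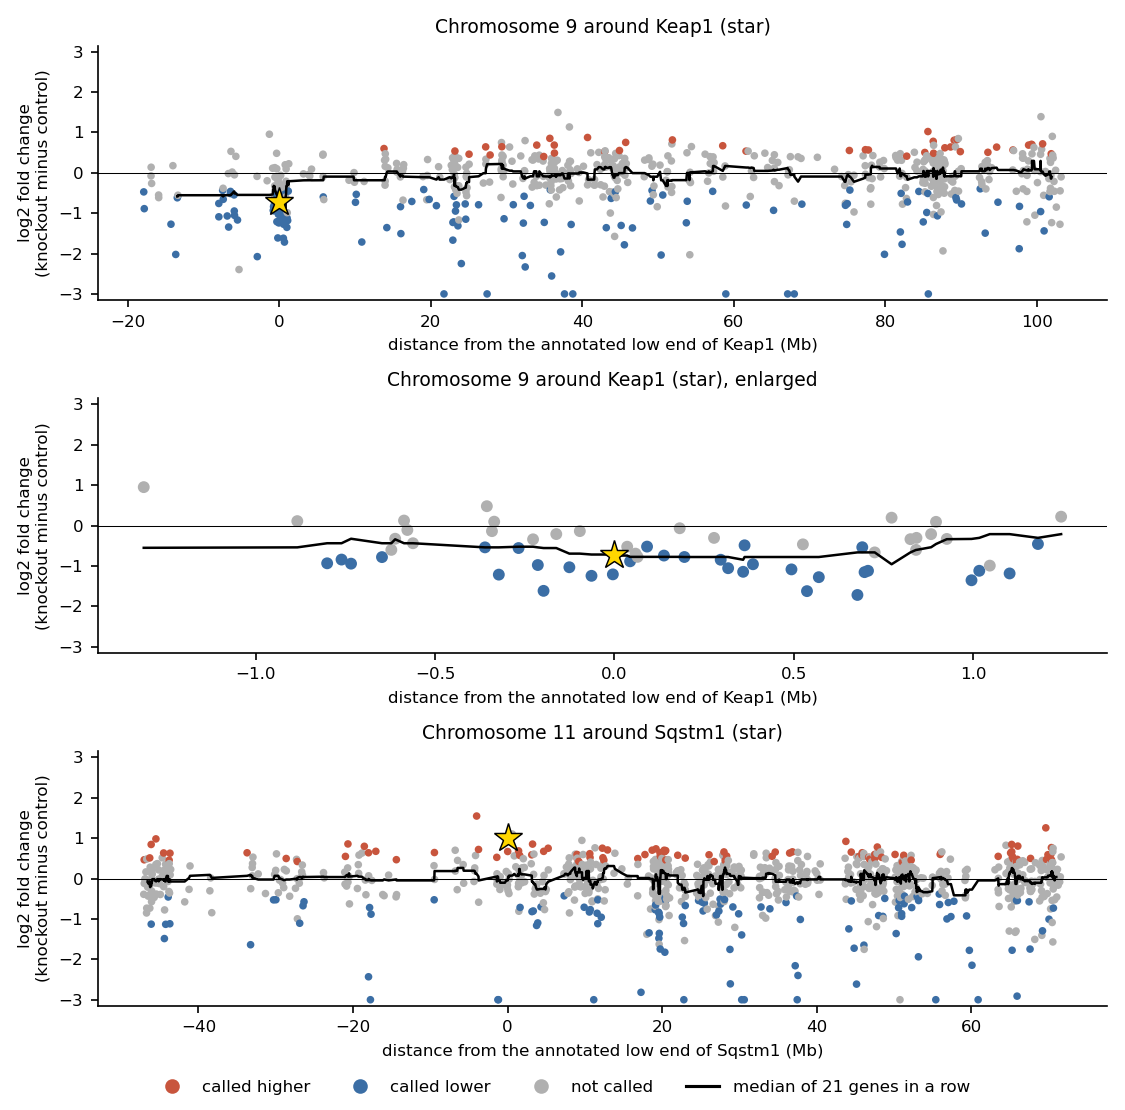
Log2 fold change (knockout minus control) of the tested genes along chromosome 9 by distance from Keap1, the same enlarged, and along chromosome 11 by distance from Sqstm1, with the median of 21 genes in a row as a line and the regulator as a star; 8 genes on chromosome 9 and 11 on chromosome 11 below -3 are drawn at -3. Keap1 lies on the line of its neighbours, below 0, while Sqstm1 lies well above its own.

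Cul3 encodes the cullin scaffold (chr1:80264923-80340480, minus strand). Its level was 234, 259 and 246 CPM in control and 275, 333 and 299 in knockout libraries, so the groups did not overlap. Its log2 fold change was 0.30 (95% interval 0.01 to 0.58, adjusted p = 0.111 in edgeR's test), which missed the threshold. Rbx1, the RING subunit that recruits the ubiquitin-conjugating enzyme (chr15:81466296-81476369, plus strand), was at 67.2, 66.5 and 76.2 CPM in control and 74.3, 114 and 92.2 in knockout libraries. Knockout library 1 lay within the controls and the others above them, with a log2 fold change of 0.42 (0.05 to 0.79, adjusted p = 0.0881 in edgeR's test). Without knockout library 1 both were called higher, Cul3 at 0.35 (adjusted p = 0.0424 in edgeR's test) and Rbx1 at 0.56 (adjusted p = 0.0081), with 42.2% of all tested genes called in that fit.

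Within a library, Keap1 reads were fewer relative to the reads of its partners. The ratio of Keap1 to Cul3 counts, which does not depend on how a library is scaled, was 0.203, 0.180 and 0.190 in control and 0.0936, 0.0830 and 0.108 in knockout libraries, a log2 difference of -1.02. The ratio of Keap1 to Nfe2l2 counts was 0.303, 0.285 and 0.287 against 0.186, 0.146 and 0.193, a difference of -0.75. Both ratios were lower in every knockout library than in any control. For Keap1 to Cul3 this follows from the separate levels, which did not overlap and went in opposite directions. An exact two-sided permutation test gave p = 0.1 for each, the smallest value that 3 against 3 libraries allow, and 0.167 after adjustment over the 5 ratios tested. The genes near Keap1 were lower as well, as given above, and their ratios to Cul3 or Nfe2l2 were not computed.

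**Figure D3:**
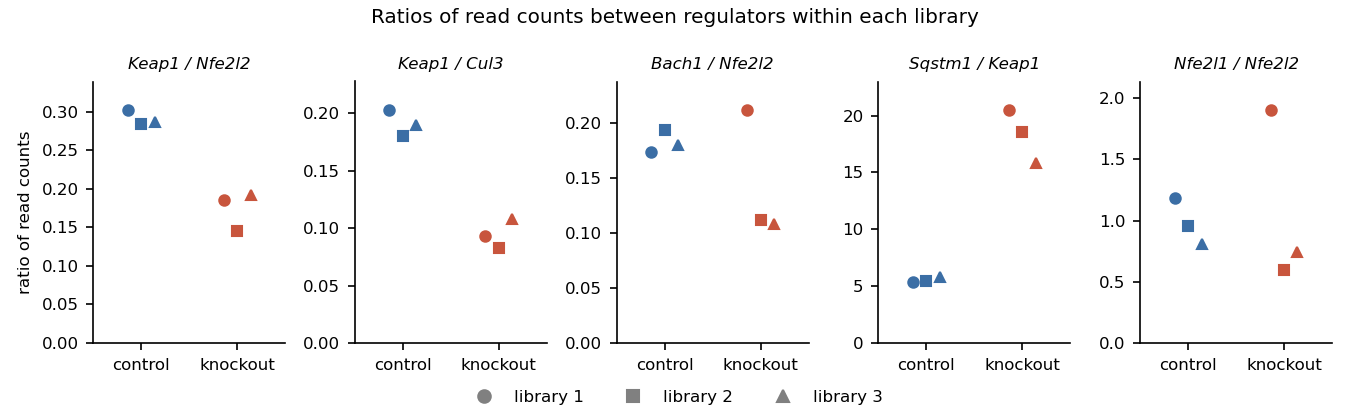
Ratios of read counts between pairs of regulators within each library, 1 symbol per library, each panel on its own linear axis from 0. The groups do not overlap for Keap1 to Nfe2l2, Keap1 to Cul3 and Sqstm1 to Keap1, and they overlap for Bach1 to Nfe2l2 and Nfe2l1 to Nfe2l2.

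Sqstm1 encodes p62, the autophagy receptor that binds KEAP1 (ENSMUSG00000015837.15, chr11:50199366-50210827, minus strand). It was at 253, 256 and 270 CPM in control and 529, 514 and 511 in knockout libraries. The replicates were tight in both groups, with the lowest knockout library well above the highest control. The mean rose from 260 ± 9.11 to 518 ± 9.61 CPM (SD, n = 3), a 1.99-fold increase, or 1.00 on the log2 scale (SE 0.12, 95% interval 0.73 to 1.26, adjusted p = 0.00087 in edgeR's test). It ranked 100 of 11453 genes by p, was called in every alternative fit, and knockout library 1 was at 1.03 times the mean of the other knockout libraries. The gene Mrnip overlaps 580 bases (17.3%) of its exons on the other strand, but had 394 counts over all 6 libraries.

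The increase of Sqstm1 was not shared along its chromosome. Of its 20 nearest tested genes, 1 was called higher and 2 lower, with a median log2 fold change of -0.08. The 1 called higher is Mgat4b, a Golgi N-glycan branching enzyme, which lies head to head with Sqstm1 on the plus strand. It was at 67.5, 68.0 and 75.7 CPM in control and 111, 109 and 116 in knockout libraries, with no overlap, a log2 fold change of 0.67 and an adjusted p of 0.00635 in edgeR's test. The stretch between the annotated ends of the head-to-head pair (GRCm38.p6, chr11:50210828-50210889, minus strand, in the direction of Sqstm1) is shown because both genes rose. It is 62 bases long with 79.0% G or C. Capitals mark the letters GGGCGG on either strand, a GC box core, which 32.7% of 32851 RefSeq windows of 250 bases before a gene start hold:
Sqstm1 and Mgat4b: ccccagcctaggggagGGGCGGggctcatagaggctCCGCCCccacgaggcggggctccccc

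The ratio of Sqstm1 to Keap1 counts was 5.33, 5.49 and 5.78 in control libraries and 20.5, 18.6 and 15.8 in knockout libraries. The groups did not overlap, and the ratio was 3.29-fold higher on the log2 mean (difference 1.72). An exact two-sided permutation test gave p = 0.1, the smallest raw value possible, and 0.167 after adjustment. Since the knockout libraries lay above all controls for Sqstm1 and below them for Keap1, the non-overlap and this p follow from those levels. They are no further support. The decrease of Keap1 was shared by the genes around it, as given above.

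Nfe2l2, which encodes NRF2 (chr2:75675513-75704641, minus strand), was at 157, 164 and 163 CPM in control and 139, 190 and 167 in knockout libraries. The knockout libraries lay on both sides of the tightly grouped controls. The mean was 161 ± 3.74 against 165 ± 25.6 CPM, with a log2 fold change of 0.04 (95% interval -0.28 to 0.35, adjusted p = 0.864 in edgeR's test), an interval that excludes a 2-fold change in either direction.

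Nfe2l1, which encodes NRF1 (chr11:96817414-96829968, minus strand), was the most variable of the 10 in the knockout group. It was at 186, 156 and 132 CPM in control and 264, 113 and 124 in knockout libraries, with knockout library 1 above all controls and the others below all of them. That library was at 2.23 times the mean of the other knockout libraries. The log2 fold change was 0.08 (95% interval -0.57 to 0.73, adjusted p = 0.859 in edgeR's test) and turned to -0.42 without knockout library 1 (adjusted p = 0.0448). No direction is given for this gene.

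Bach1, the repressor (chr16:87698945-87733346, plus strand), was at 27.1, 31.7 and 29.3 CPM in control and 29.4, 21.2 and 18.0 in knockout libraries. Knockout library 1 lay within the controls and the other knockout libraries below them. The mean was 29.4 ± 2.30 against 22.8 ± 5.87 CPM, a log2 fold change of -0.37 (95% interval -0.78 to 0.05, adjusted p = 0.166 in edgeR's test). Without knockout library 1 Bach1 was called lower, at -0.59 (adjusted p = 0.00929). Its surroundings went the other way: of its 20 nearest tested genes 6 were called higher and 2 lower, with a median of 0.27. This was not local, as the 362 other tested genes of chromosome 16 held 90 called higher and 26 lower, with a median of 0.24. Relative to the medians of its neighbours Bach1 was at -0.67 (adjusted p = 0.0398 in edgeR's test, in the fit chosen after seeing the data). That fit takes the medians as fixed, so their own error is not in this p. The ratio of Bach1 to Nfe2l2 counts, repressor to activator, was 0.173, 0.194 and 0.180 in control and 0.212, 0.112 and 0.108 in knockout libraries. The groups overlapped (log2 difference -0.41, exact permutation p = 0.4).

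The 3 small MAF proteins, which lack an activation domain and serve as DNA-binding partners of NRF2, NRF1 and BACH1, were not called. Mafg (chr11:120625117-120633600, minus strand) was at 135, 148 and 152 CPM in control and 147, 145 and 148 in knockout libraries, inside the control range throughout (log2 fold change 0.02, 95% interval -0.24 to 0.28). Mafk (chr5:139791513-139802653, plus strand) was at 39.1, 27.8 and 31.4 CPM against 36.2, 38.6 and 43.8, overlapping through control library 1 (0.28, -0.08 to 0.63, adjusted p = 0.223 in edgeR's test). Maff (chr15:79346621-79359076, plus strand) was at 9.40, 8.65 and 6.87 CPM in control libraries against 9.97, 13.7 and 12.7 in knockout libraries. Its groups did not overlap, but it missed the threshold with a log2 fold change of 0.55 (0.10 to 1.01, adjusted p = 0.0716 in edgeR's test), and it was called higher without knockout library 1 (0.67, adjusted p = 0.0159).

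**Figure D4:**
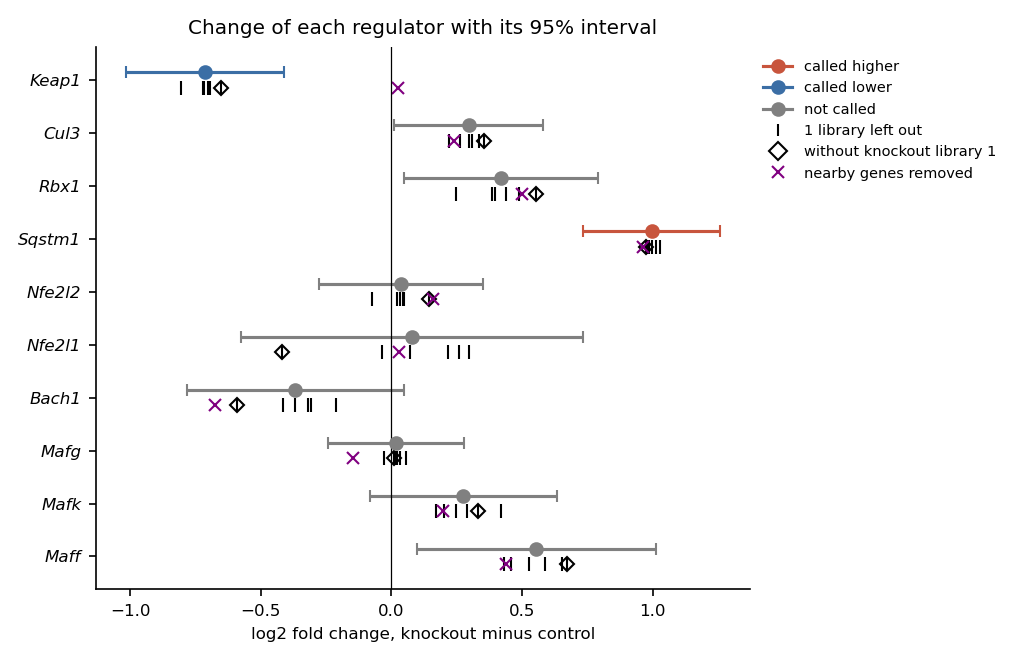
Log2 fold change (knockout minus control) of each regulator with its 95% interval; ticks below give the fits with 1 library left out, diamonds the fit without knockout library 1 and crosses the fit with the medians of nearby genes removed. Sqstm1 stays near 1.00 throughout, Keap1 goes to 0.03 at its cross, and Nfe2l1 moves to -0.42 at its diamond.

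Since the MAF genes are themselves known to carry antioxidant response elements, the 250 bases before each RefSeq gene start were searched on both strands for the core letters TGACNNNGC. They were present for Nfe2l2, Mafg, Mafk and Maff, 4 of the 10 regulators, beside 11.5% of 27025 genes. None of these 4 was called, and neither called gene, Keap1 nor Sqstm1, had a match in this window. Bases further from a start were not searched, so a gene without a match may still carry an element. No link between matches and calls was tested. The matches are shown with 10 bases on each side, the core in capitals, 5′ to 3′ on the strand that carries it (RefSeq, GRCm38.p6): Nfe2l2 at chr2:75704885-75704913, minus strand; Mafg at chr11:120633751-120633779, plus strand; Mafk at chr5:139791513-139791541, minus strand; Maff at chr15:79346499-79346527, plus strand.
Nfe2l2: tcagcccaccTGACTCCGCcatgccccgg
Mafg: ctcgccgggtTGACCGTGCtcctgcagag
Mafk: tccccagtacTGACACCGCttccgggatc
Maff: gggcgtctcaTGACTCTGCcactggaaag

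The E-box core CACGTG, which TFEB and other basic helix-loop-helix factors can bind, was found in such windows of the same 3 small MAF genes and of none of the other 7, beside 6.86% of all genes. These matches, shown to the same rule, lie at chr11:120633573-120633598 (Mafg, minus strand), chr5:139791318-139791343 (Mafk, plus strand) and chr15:79347319-79347344 (Maff, plus strand). Windows were taken before every RefSeq start of a gene, and some of these starts lie inside the gene spans given above, so the E-boxes of Mafg and Maff and the antioxidant response element core of Mafk fall within those spans. The windows were also searched for TGANTCA, the AP-1 core of the MAF and BACH sites, and for TGATGNAA, the ATF4 element core. None of the regulators, Sqstm1 included, had a match to either, beside 7.82% and 3.91% of all genes. A match is a run of letters, not a measured site.
Mafg E-box: gaatggaaccCACGTGaccaaacatc
Mafk E-box: gagacaactgCACGTGgaagcatgta
Maff E-box: ccagaggtgtCACGTGaatgcatcca

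Levels between genes were compared per kilobase of exon (RPKM). In control libraries Sqstm1 was the most abundant transcript (77.4 RPKM), followed by Cul3 (50.6), Nfe2l2 (42.4), Nfe2l1 (29.0), Mafg (25.8), Rbx1 (15.4), Keap1 (9.93 to 10.1 over the libraries), Mafk (8.40), Bach1 (4.75) and Maff (3.20). Neighbours in that order did not overlap between libraries, except Nfe2l1 with Mafg and Keap1 with Mafk. In knockout libraries Sqstm1 reached 154 RPKM, Keap1 at 6.08 lay below Mafk at 10.1 with no overlap, and Maff at 4.67 and Bach1 at 3.70 had overlapping libraries. The order is a description that depends on the length used: per kilobase of coding sequence Mafg (298 RPKM) and Rbx1 (203) lay above Sqstm1 (186) in control libraries.

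The genes whose pattern over the 6 libraries was most like Keap1's, by the root mean square difference of centred log2 CPM, were E2f8 (0.0458), Ptk2b (0.0616) and Apobr (0.0798). Those most like Sqstm1's were Cox7a2l (0.0495), Ogg1 (0.0826) and Tnfsf9 (0.0854).

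**Figure D5:**
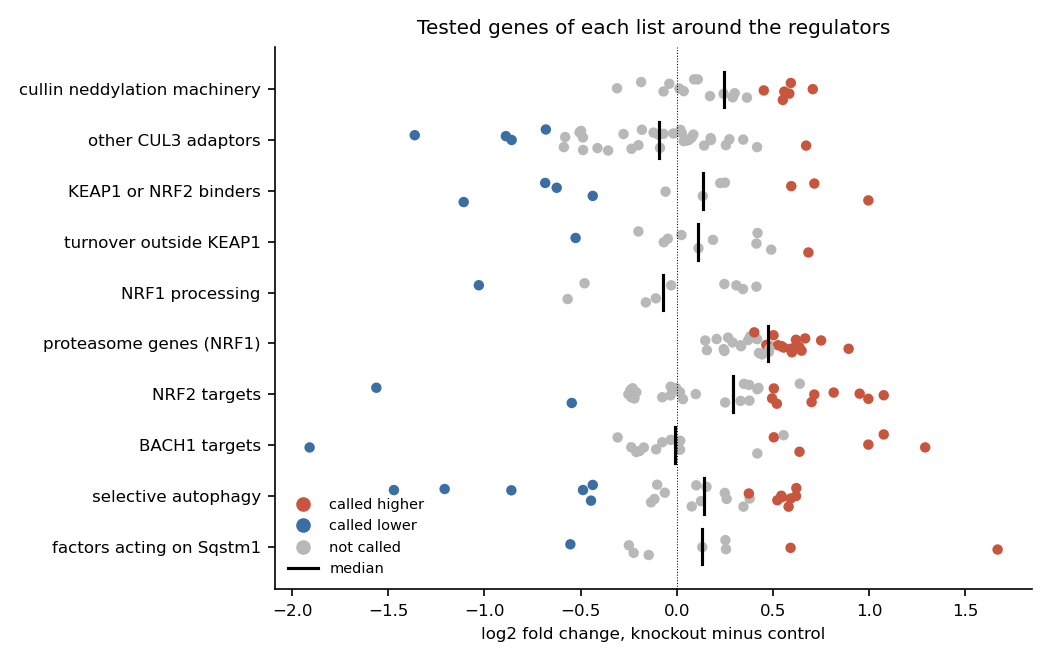
Log2 fold change (knockout minus control) of every tested gene of the lists around the 10 regulators, 1 point per gene, coloured by call, with the list's median as a bar; vertical scatter within a list is only for legibility. The proteasome genes lie to the right of 0 throughout, while the NRF2 targets, BACH1 targets and selective autophagy genes lie on both sides.

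The counts that follow for the lists are to be read beside the 25.3% of all tested genes called (11.8% higher, 13.5% lower). In the other fits named below, the share of all tested genes called was 5.5% without control library 2, 8.89% without knockout library 2, 10.4% without knockout library 3, 15.4% without control library 3, 21.2% without control library 1, 42.2% without knockout library 1, 20.4% after length and GC offsets and 25.1% with total counts alone.

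Around the ligase, cullin activity depends on attachment of NEDD8 and on its removal by the COP9 signalosome. Of 19 genes of that machinery, 6 were called higher and 0 lower (31.6% called), with a median log2 fold change of 0.24. They include Nedd8 itself, which rose from 105 ± 14.4 to 172 ± 32.6 CPM (0.71), and Ube2f, a NEDD8-conjugating enzyme (0.59). Also among them are the signalosome subunits Cops5, the deneddylating protease (0.59), and Cops7a (0.45). The list holds machinery of cullins in general, so its counts are not particular to CUL3. The count was 0 without control library 2 or without knockout library 2, 2 without control library 3, 3 without knockout library 3 and 3 after length and GC offsets. It was 6 without control library 1 and 8 without knockout library 1. Of 36 tested substrate adaptors that compete for CUL3, 1 was called higher (Kctd5, 0.67) and 4 lower (13.9% called), among them Klhl11 (-1.36) and Rhobtb1 (-0.86). None was called lower without control library 2, knockout library 2 or knockout library 3, and 9 were without knockout library 1.

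In a list of 11 genes made for proteins that bind KEAP1 or NRF2, 3 were called higher and 4 lower (63.6% called). Binding was not measured here. Prdx1, a peroxiredoxin (0.71), and Cdkn1a, the p21 cell-cycle inhibitor (0.60), rose beside Sqstm1, and Amer1, a WNT regulator (-1.11), Palb2 (-0.68) and Brca1 (-0.62), both of homologous recombination, and the autophagy receptor Nbr1 (-0.44) fell. Only 1 was called higher and 1 or 2 lower without control library 1, control library 2, knockout library 2 or knockout library 3. The counts were 2 and 2 without control library 3, and 3 and 4 without knockout library 1. A list of 11 tested genes was made for turnover of NRF2, NRF1 and BACH1 outside KEAP1, and it includes Rbx1. Of these, Fbxo22, the F-box protein that targets BACH1, rose from 43.2 ± 6.65 to 69.4 ± 12.3 CPM (0.68). Hmmr fell by 0.53 on the log2 scale, but it encodes a hyaluronan receptor and not a degradation factor. The other 9 were not called. Among the uncalled were Btrc, the F-box protein of the phosphodegron route to NRF2 (0.11), and its kinase Gsk3b (-0.20). The call on Fbxo22 was lost after length and GC offsets (adjusted p = 0.0568 in edgeR's test) and without any of control library 1, control library 2, knockout library 2 or knockout library 3.

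NRF1 is released from the endoplasmic reticulum and processed before it acts. Of 10 tested genes of that route 1 was called, Hcfc1 (host cell factor C1), which fell from 235 ± 45.8 to 115 ± 24.7 CPM (log2 fold change -1.03). Of 32 proteasome genes of the kind NRF1 drives, 15 were called higher and 0 lower (46.9% called), with a median of 0.47, although Nfe2l1 itself had no direction. Psmb1 rose from 172 ± 8.06 to 320 ± 57.4 CPM (0.89), Psmb4 by 0.75, Psmb6 by 0.67 and Psmc5 by 0.64 on the log2 scale. The count depended on processing: 3 after length and GC offsets, with a median of 0.24, 4 with total counts alone, 1 without control library 2, 2 without knockout library 2 or 3, 4 without control library 3, 9 without control library 1 and 27 without knockout library 1.

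The genes that NRF2 is known to activate did not move together. Of 32 tested, 9 were called higher and 2 lower (34.4% called), with a median of 0.29. Txn1, thioredoxin, was at 336, 282 and 310 CPM in control and 448, 747 and 598 in knockout libraries (0.95), with no overlap. Gstm1, a glutathione transferase, rose from 147 ± 17.0 to 259 ± 26.1 CPM (0.82). Gstm1 was not called with length and GC offsets and the replicate block (0.46, adjusted p = 0.0566 in edgeR's test) or with chromosome medians added to those offsets (0.36, adjusted p = 0.116). Ephx1, an epoxide hydrolase at a low level, fell from 3.79 to 1.26 CPM (-1.56). Sqstm1 is itself on the list, and both Sqstm1 and Prdx1 are on this list and on that of KEAP1 or NRF2 binders.

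Of 7 commonly used indicator genes of NRF2, 1 was called. Gclm, the modifier subunit of glutamate-cysteine ligase, was at 142, 151 and 169 CPM in control and 139, 162 and 150 in knockout libraries (log2 fold change -0.03, 95% interval -0.32 to 0.26), with overlapping groups. Srxn1, sulfiredoxin (-0.03, -0.32 to 0.25), and Txnrd1, thioredoxin reductase (-0.08, -0.37 to 0.22), had intervals of similar width around 0, and Gclc, the catalytic subunit, was at -0.21 (-0.49 to 0.07). Nqo1, the quinone reductase, was called higher but at a very low level, 1.43, 1.13 and 1.00 CPM in control and 2.49, 2.89 and 2.04 in knockout libraries (1.08, adjusted p = 0.0391 in edgeR's test). Slc7a11, the cystine transporter that feeds glutathione synthesis, was at 45.9, 49.8 and 45.2 CPM in control and 113, 42.0 and 34.3 in knockout libraries (0.42, -0.40 to 1.24), high in knockout library 1 only. Over the list, the counts called higher and lower were 2 and 0 without control library 2, 3 and 2 without control library 3, and 4 and 1 without knockout library 3. They were 5 and 1 without knockout library 2, 8 and 2 without control library 1, and 13 and 4 without knockout library 1.

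Of 18 tested genes that BACH1 is known to repress or bind, 5 were called higher and 1 lower (33.3% called), with a median of -0.01. Hmox1, haem oxygenase 1 and its classical target, was at 424, 731 and 714 CPM in control and 299, 655 and 631 in knockout libraries, where library 1 was the lowest of each group (log2 fold change -0.24, 95% interval -0.90 to 0.42, adjusted p = 0.576 in edgeR's test). Herpud1, a stress protein of the endoplasmic reticulum, was at 43.5, 47.1 and 44.8 CPM in control and 106, 111 and 115 in knockout libraries, with tight groups (1.29, adjusted p = 0.000227 in edgeR's test). Slc40a1, the iron exporter ferroportin, was at 19.8, 52.5 and 58.5 CPM against 12.1, 13.1 and 9.95 (-1.91), and Ftl1, ferritin light chain, rose by 0.50 on the log2 scale. The call on Ftl1 was lost after length and GC offsets (adjusted p = 0.471) and without control library 2 (0.131), control library 3 (0.0501) or knockout library 3 (0.0675). Sqstm1 and Mafg are themselves on this list, and Sqstm1 is among those called higher. Without control library 2, control library 3 or knockout library 3, 2 genes of the list were called higher, Sqstm1 and Herpud1. The count called higher was 3 without knockout library 2 and 5 without control library 1 or knockout library 1. After length and GC offsets 2 were called higher and 2 lower.

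Around p62, 8 of 26 selective autophagy genes were called higher and 6 lower (53.8% called, beside 11.8% higher and 13.5% lower over all tested genes), with a median of 0.14. Of the 5 genes of the list for ubiquitin-like proteins of the LC3 and GABARAP family, which p62 binds, 4 were called higher and Map1lc3a was not (0.38). Map1lc3b was at 80.2, 87.0 and 84.2 CPM in control and 118, 136 and 125 in knockout libraries (0.59), with no overlap. Gabarap rose from 144 to 210 CPM (0.54), and Gabarapl1 (0.58) and Gabarapl2 (0.62) rose too, both named to complete the family. After length and GC offsets Gabarap was at 0.22 (adjusted p = 0.174 in edgeR's test) and not called. Wdfy3, the ALFY scaffold for aggregates, fell from 115 ± 21.9 to 49.7 ± 14.9 CPM (-1.21), and Ulk2, an initiating kinase, fell by 0.86 on the log2 scale. The counts were 0 higher and 1 lower without control library 2, 2 and 2 without knockout library 2, 1 and 2 without knockout library 3, and 1 and 6 with total counts alone. They were 3 and 5 without control library 1, 4 and 2 without control library 3, and 8 and 6 without knockout library 1.

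Of 9 transcription factors known to act on Sqstm1, 2 were called higher and 1 lower (33.3% called, near the 25.3% of all tested genes). Ddit3, which encodes CHOP of the integrated stress response, was at 6.98, 7.35 and 7.55 CPM in control and 39.9, 13.6 and 16.5 in knockout libraries (1.67, adjusted p = 0.0119 in edgeR's test). Knockout library 1 was the highest, and all 3 lay above the controls. Atf4, its upstream factor, rose from 393 ± 15.7 to 592 ± 77.3 CPM (0.59), and Foxo3 fell by 0.55 on the log2 scale. Tfeb (0.13) and Tfe3 (-0.15), which drive lysosome and autophagy genes, were not called. The calls on Atf4 and Foxo3 were lost after length and GC offsets (0.37 and -0.28). Without control library 2 none of the 3 was called, with fold changes of 1.67 for Ddit3, 0.57 for Atf4 and -0.48 for Foxo3.

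Among the named genes of these lists, Herpud1, Slc40a1, Hcfc1, Psmb1, Amer1 and Wdfy3 kept their calls in all 18 alternatives. Txn1, Map1lc3b, Ulk2 and Ddit3 lost theirs in 1, without control library 2, where edgeR's adjusted p was 0.0519, 0.0532, 0.0609 and 0.0528. Their log2 fold changes there were 0.89, 0.62, -0.76 and 1.67, beside 0.95, 0.59, -0.86 and 1.67 with all libraries, in a fit that called 638 genes in place of 2896. Sqstm1 and Keap1 were called without that library. The other calls followed through all alternatives were lost in more: Nqo1 in 10 of 18, Cops7a in 9, Gabarap in 8, Palb2 in 7, and Nedd8, Psmb4, Psmc5, Foxo3 and Ftl1 in 6 each. Brca1, Klhl11 and Fbxo22 lost theirs in 5, Atf4, Psmb6 and Rhobtb1 in 4, Cops5, Ube2f, Kctd5 and Hmmr in 3, and Gstm1 and Ephx1 in 2. Prdx1, Cdkn1a, Nbr1, Gabarapl1 and Gabarapl2 were not followed in this way. Neither Prdx1 nor Cdkn1a was called higher with total counts alone or with neighbour medians. The same held without control library 1 or 2 or knockout library 2 or 3. Gabarapl1 and Gabarapl2 were not called higher without control library 2. Hmox1 gained a call in 1, lower with length and GC offsets and the replicate block (adjusted p = 0.0128 in edgeR's test).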

How the data were processed

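RNA of 6 DC2.4 libraries was sequenced. The deposited table holds whole-number read counts per gene symbol for all 6. The submitters' processing notes name Trimmomatic 0.39, STAR 2.7.5c, StringTie 2.1.7 and mm10; how reads were counted, with which annotation and on which strand, is not given in the sources used here. All 6 columns carry a sample's name, and 0 were unmapped. Knockout was tested against control (3 libraries each) with edgeR 4.0.16 in R 4.3.3 (quasi-likelihood, TMM factors, filterByExpr, Benjamini-Hochberg over 11453 genes, threshold 0.05), which was checked on simulated data. Counting depth limits low genes such as Nqo1.

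GENCODE models of GRCm38 (mm10) gave coordinates, lengths and GC; 666 of 31205 symbols had no match; promoter windows came from RefSeq (GRCm38.p6), with a window for all 10 regulators. The regulators and lists were chosen with earlier results of these data known. Named genes are all 10 regulators, up to 4 non-overlapping called genes of lowest p per list, 7 fixed indicator genes, and the 3 nearest patterns; other names are said to be chosen after seeing values or fall in counts given in full. Alternatives were DESeq2 1.42.0, limma 3.58.1 voom, other scalings and filters, length and GC offsets (loess), chromosome medians, the replicate number as a block, each library left out, and, chosen after seeing the data, medians of 10 neighbours on each side. Library values are TMM-normalized CPM; ratios used exact permutation tests. Some genes that the naming rule covers are not reported here.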

Additional observations from a re-analysis of the deposited data

How the results depend on the processing

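Sqstm1 stayed called higher in all 18 alternatives, from 0.84 with total counts alone to 1.03. Keap1 stayed called lower in 17 of 18 (adjusted p 0.000106 with DESeq2 to 0.0428 without control library 2) and went to 0.0261 with neighbour medians. Of the 10 regulators 2 were called in 17 of 18 alternatives and 7 without knockout library 1, so leaving out 1 library gave 2 to 7. The 2 were Sqstm1 and Keap1, except with neighbour medians, where they were Sqstm1 and Bach1. Over all genes the called number was 1744 with length, GC and chromosome medians and 638 to 4962 with 1 library left out. Total counts alone, which moved the median of all genes from 0.01 to -0.14, gave 667 higher and 2212 lower in place of 1353 and 1543.

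Of the uncalled genes, Nfe2l2 changed sign with total counts alone (-0.12), with length and GC offsets (-0.0817), with those and the replicate block (-0.0869) and over the libraries left out (-0.0756 to 0.143). Nfe2l1 did with total counts alone (-0.0553), limma-voom (-0.0186), the replicate block (-0.0185) and over the libraries left out (-0.42 to 0.30). Mafg did with upper quartile scaling (-0.0082), total counts alone (-0.14), neighbour medians (-0.15) and over the libraries left out (-0.0268 to 0.0547). The log2 difference of the Nfe2l1 to Nfe2l2 ratio (-0.04) ranged from -0.55 to 0.29. Causes were not tested beyond what each alternative removes.

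Whether equal replicate numbers pair the libraries cannot be settled from so few libraries. Deviations of same-numbered libraries correlated at 0.154, -0.064 and 0.358, beside -0.324 to 0.141 for differently numbered ones. With the replicate block 3212 genes were called, 2285 with length and GC offsets as well, and the regulators called were 2 in both. RNA counts do not measure protein, and depth limits what can be said of genes with few counts.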
